A study of Mus musculus with 6 samples.

Results

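The cytosolic ribosomal proteins are the protein part of the ribosomes that translate nuclear messenger RNA. Their genes were taken from the deposited count table as every locus with a gene name of the form Rpl, Rps, Rplp or Rpsa followed by the usual number and suffix. The rule found 89 of the 59699 loci, 53 of the large subunit and 36 of the small subunit. It used names alone and no measured value. RNA was sequenced from adrenal glands of 3 Armc5 knockout samples (KO, genotype Armc5(-/-)) and 3 wild-type samples (WT), all from female mice aged 30 weeks on a 129 sv X CD1 strain background. ARMC5 brings RNA polymerase II to an E3 ubiquitin ligase built on CUL3. The labels call the Armc5(-/-) animals knockout without a tissue-restricted promoter or Cre, and do not say whether each sample came from a separate animal, so the tests measure the spread between these samples.

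Each ribosome carries close to 1 copy of most of its proteins. The pre-rRNA, the small nucleolar RNAs and the proteins are made in step in a growing cell. Transcripts of the mammalian ribosomal protein genes begin with a tract of pyrimidines (the TOP motif), through which their translation follows TOR signalling. These genes have also left a very large number of processed pseudogenes in mammalian genomes, copies of the spliced mRNA that were inserted back into chromosomes.

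Of the 89 loci, 83 were annotated as protein-coding in GENCODE M21 and 6 as pseudogenes, namely Rpl6l, Rpl32l, Rps12l1, Rps3a2, Rps3a3 and Rps4l. The members lay on 19 chromosomes, with 15 of them on chromosome 7. In 7 loci the table had merged a member with another protein-coding gene (Rpl6 with Hectd4, Rpl13a with Flt3l, Rpl17 with BC031181, Rpl24 with Zbtb11, Rpl27 with Cd300lg, Rpl28 with Kmt5c and Rps10 with Nudt3), so counts of the 2 genes cannot be told apart there. After the filter on low counts 86 members were tested, 50 of the large and 36 of the small subunit. Levels are given as CPM, the count of a locus relative to its library's size, with sizes scaled by TMM, a method that sets the bulk of genes equal between libraries. The tested members ranged from 0.35 to 363 CPM on average over the 6 libraries, with a median of 105 CPM.

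The libraries held 70547288 to 122924298 counts in KO and 89806230 to 130573434 in WT. Armc5 was at 3.58, 3.53 and 3.65 CPM in KO, against 27.3, 25.3 and 27.8 CPM in WT (log2 fold change -2.90, SE 0.10, adjusted p = 0.000410 by edgeR), as the labels say. Summed CPM of 9 adrenal cortex markers was 32223 to 37851 in KO and 41941 to 70872 in WT, and all 9 had a negative log2 fold change. Summed CPM of 8 chromaffin markers was 3862 to 4271 in KO and 1887 to 2692 in WT, with Chga and Dbh called higher. KO replicate 3 also held 3880 CPM of 8 hepatocyte markers, against 110 and 113 CPM in the other KO libraries and 113 to 176 CPM in WT. The part of the cortex and chromaffin levels in the results on the ribosomal proteins was not tested. The 6 erythroid markers lay in 4 loci, since Hba-a1 was merged with Hba-a2 and Hbb-bs with Hbb-bt. All 4 loci had a negative log2 fold change. The 8 lymphocyte markers summed to at most 8.47 CPM in any library, and the 7 macrophage markers to 141 to 176 CPM in KO and 147 to 381 CPM in WT. Skeletal muscle markers summed to at most 2.09 CPM, with 1 of 6 at 0 counts.

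With TMM scaling, transcripts of the ribosomal proteins lay slightly but widely below WT in KO adrenals, and no single gene passed the test. A negative log2 fold change was found for 77 of the 86 tested members, against 50.7% of all tested loci. Their median log2 fold change was -0.19, against -0.0063 over the 21358 loci tested. Without KO replicate 3, the library with hepatocyte RNA, 78 were negative and the median was again -0.19. Every KO library was below every WT library at 52 of the 86 members, against 14.2% of all tested loci, and above at 1 member, against 16.3%. By edgeR's quasi-likelihood test with Benjamini-Hochberg adjustment over all tested loci, 0 members were called at an adjusted p under 0.05, where 1.84% of all loci were called (0.431% lower, 1.41% higher). At an unadjusted p under 0.05 there were 29 members, all lower in KO, against 9.73% of all loci lower at that level. Without KO replicates 1, 2 and 3 in turn there were 9, 12 and 11, all lower, against 6.07%, 6.38% and 6.99% of all loci lower. Without WT replicate 1 there were 22 lower and 1 higher, without WT replicate 2 there were 17, all lower, and without WT replicate 3 there were 16 lower and 1 higher, against 9.91%, 9.29% and 6.5% of all loci lower. In a TMM fit of loci with at least 10 CPM in 3 libraries, 10 of the 82 members were lower and 1 higher. This is close to the 10% of such loci that were lower. The median of the members was -0.11 there, against -0.024 for all such loci, and 85.4% of them were negative, against 53.8%. DESeq2 called 8 members, all lower, where it called 12.3% of all loci in either direction and 4.85% lower. In bulk tissue, fewer cells of a type and less of an RNA per cell cannot be told apart.

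The direction of these small differences depended on what the libraries were set equal to. With total counts alone, the median log2 fold change of the members was 0.04 and 24 of the 86 were negative, against 25.4% of all loci. With Rn7sk (7SK RNA, a small RNA made by RNA polymerase III that the authors used for a scaled version of their values) set equal, the median was 0.02 and 33 of 86 were negative, against 28.1% of all loci. The median of all tested loci moved with the members, to 0.22 with total counts and 0.19 with equal Rn7sk counts. A change of scaling shifts all loci by nearly the same amount. The distance of the members from the median of all loci, -0.18 under each of the 3 scalings, therefore could hardly change. With TMM over loci of at least 10 CPM in 3 libraries, this distance was -0.09 for the members, -0.09 for the large and -0.04 for the small subunit. Neither scaling gave a call among the members, where 3.15% and 3.33% of all loci were called. At an unadjusted p under 0.05, 6 members were higher in KO with total counts (all of the small subunit, among them Rps9, Rps12, Rps20, Rps3a1 and Rpsa), against 22.3% of all loci. With equal Rn7sk counts there were 3 (Rpl26, Rps12 and Rps3a1), against 18.4%. With total counts 1 member was below in every KO library, against 3.09% of loci, and 8 were above, against 29.8%. With equal Rn7sk counts 1 was below, against 2.74%, and 4 were above, against 24.6%. Rn7sk itself had 17696, 19960 and 16577 CPM in KO and 22495, 19673 and 20003 CPM in WT (log2 fold change -0.20, SE 0.15, adjusted p = 0.462 by edgeR).

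**Figure D1:**
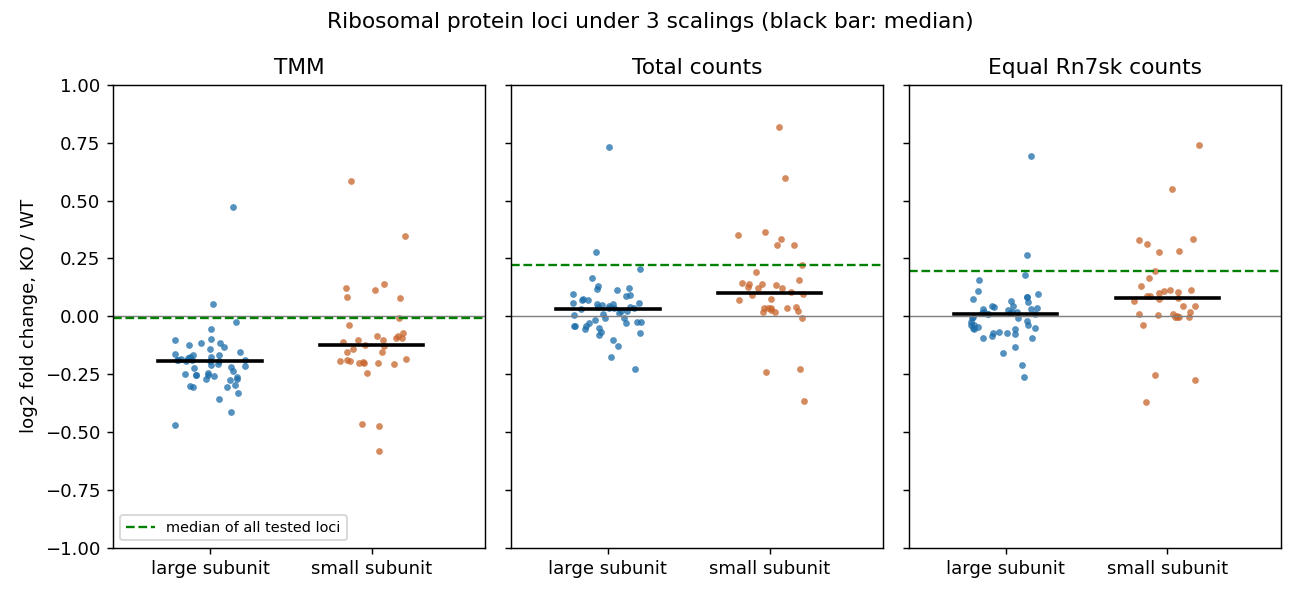
log2 fold change (KO over WT, vertical axis) of the tested large subunit loci (blue) and small subunit loci (orange) with TMM scaling, total counts and equal Rn7sk counts. Each point is a locus, the black bar is the median, the dashed green line is the median of all tested loci, and Rps3a3 at -2.08 with TMM is outside the axis. The medians of both subunits lie below the green line in each panel, whose height moves between -0.0063, 0.22 and 0.19.

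The summed members show the same dependence library by library. Their share of the counts of named loci was 1.02%, 1.03% and 1.01% in KO and 0.957%, 1.04% and 0.946% in WT. The KO libraries lay between 2 WT libraries and WT replicate 2, so the groups overlapped. Mitochondrially encoded RNAs, which took 13.3%, 13.2% and 13.7% of those counts in KO and 16.8%, 14.8% and 17.6% in WT, are part of this denominator. Without them the share was 1.18%, 1.19% and 1.17% in KO and 1.15%, 1.22% and 1.15% in WT, again with overlap. In TMM-scaled CPM the members summed to 9511, 9338 and 9412 in KO and to 11100, 10327 and 10427 in WT, with every KO library below every WT library.

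The median of the large subunit members was slightly lower than that of the small subunit members. The median log2 fold change with TMM was -0.19 for the 50 large subunit loci, of which 48 were negative, and -0.13 for the 36 small subunit loci, of which 29 were negative. The 20 large subunit and 9 small subunit loci at an unadjusted p under 0.05 were all lower in KO, against 9.73% of all loci lower. Every KO library was below every WT library at 34 large and 18 small subunit loci, against 14.2% of all tested loci. The ratio of summed large to summed small subunit counts, which does not depend on the scaling, was 1.49, 1.39 and 1.49 in KO and 1.55, 1.46 and 1.6 in WT. KO replicates 1 and 3 lay above WT replicate 2, so the ratio overlapped between the groups. When 1 library was left out, the medians of the large and small subunit were closest without KO replicate 2 (-0.18 and -0.15). They were furthest apart without WT replicate 2 (-0.20 and -0.11). The library medians had an SD within groups of 0.059 for the large and 0.060 for the small subunit on the log2 scale. The difference between the subunits was not tested, since the members are not replicates.

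**Figure D2:**
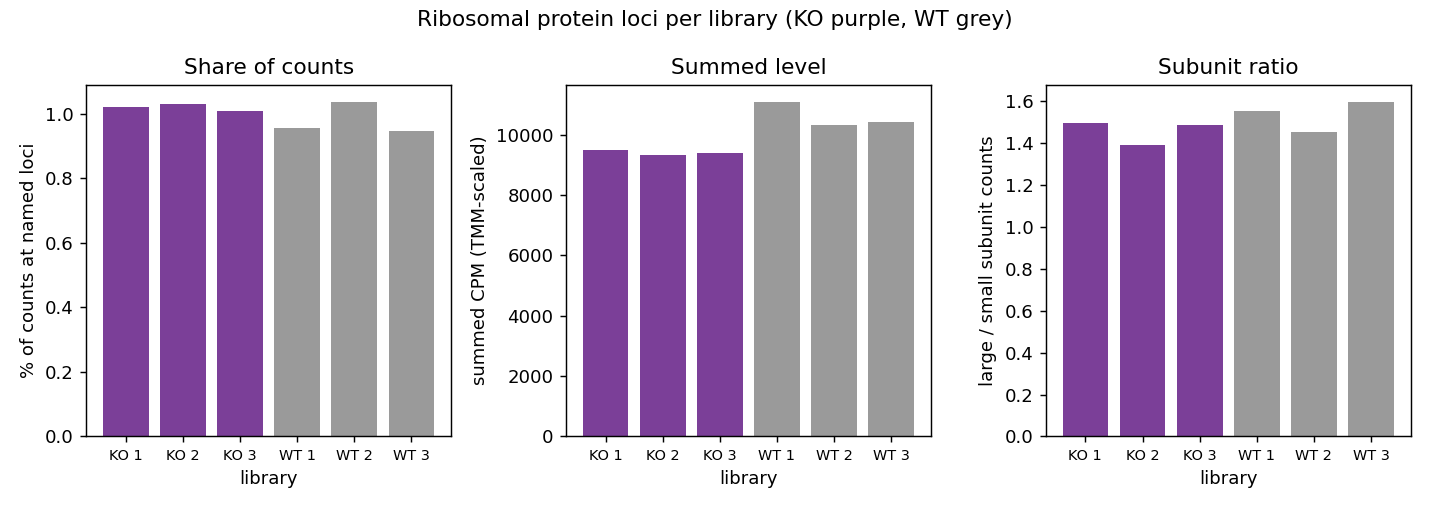
Share of the counts of named loci in ribosomal protein loci (left, percent), their summed TMM-scaled CPM (middle) and the ratio of large to small subunit counts (right), as 1 bar per library with KO in purple and WT in grey. The share and the ratio overlap between the groups, while the summed CPM is at most 9511 in KO and at least 10327 in WT.

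The members with the smallest p were all lower in KO with TMM scaling. Rps2, a small subunit protein near the mRNA channel, was at 132, 151 and 132 CPM in KO, against 181, 202 and 190 CPM in WT. Every KO library was below every WT library, and the log2 fold change of -0.46 (SE 0.095) had an adjusted p of 0.0642 by edgeR and 0.00108 by DESeq2. Rpl27, counted together with Cd300lg, was at 117, 121 and 113 CPM in KO, against 152, 144 and 154 CPM in WT (log2 fold change -0.36, SE 0.077, adjusted p = 0.0720). Rpl35, which sits at the exit of the peptide tunnel, was at 78.6, 86.6 and 83.8 CPM in KO, against 104, 106 and 103 CPM in WT (log2 fold change -0.33, SE 0.076, adjusted p = 0.0807). These 2 large subunit genes also showed no overlap between the groups with TMM, and DESeq2 called both (adjusted p = 0.00123 and 0.00532).

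Of the next members, Rpl29, Rpl32, Rpl10, Rpl17 and Rpl31 had smaller differences, while that of the pseudogene Rps3a2 was larger. Rpl29 was at 32, 31.8 and 30.5 CPM in KO, against 38.1, 38.3 and 37.8 CPM in WT. Its 69 pseudogene copies, of the kind described below, held 74.2% of the counts of Rpl29 and its copies together. Rpl32 was at 116, 118 and 116 CPM in KO, against 142, 144 and 132 CPM in WT. Rpl10, which joins the large subunit late in its maturation, was at 223, 213 and 214 CPM in KO, against 269, 265 and 248 CPM in WT. In each of these 3 genes the highest KO library was below the lowest WT library, with log2 fold changes of -0.28, -0.25 and -0.27 and adjusted p of 0.113, 0.133 and 0.138 by edgeR. Rpl17, counted with BC031181, was at 168, 168 and 170 CPM in KO, against 225, 198 and 200 CPM in WT. Rpl31 was at 87.2, 96.6 and 89.7 CPM in KO, against 109, 106 and 107 CPM in WT. Rpl17, Rpl31 and the pseudogene Rps3a2 had log2 fold changes of -0.30, -0.24 and -0.58 and no overlap between the groups. DESeq2 also called Rpl29, Rpl10, Rpl17, Rpl32 and Rps3a2.

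With total counts these 9 genes had log2 fold changes between -0.0072 and -0.37, and the smallest adjusted p among them was 0.294, that of Rps2.

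**Figure D3:**
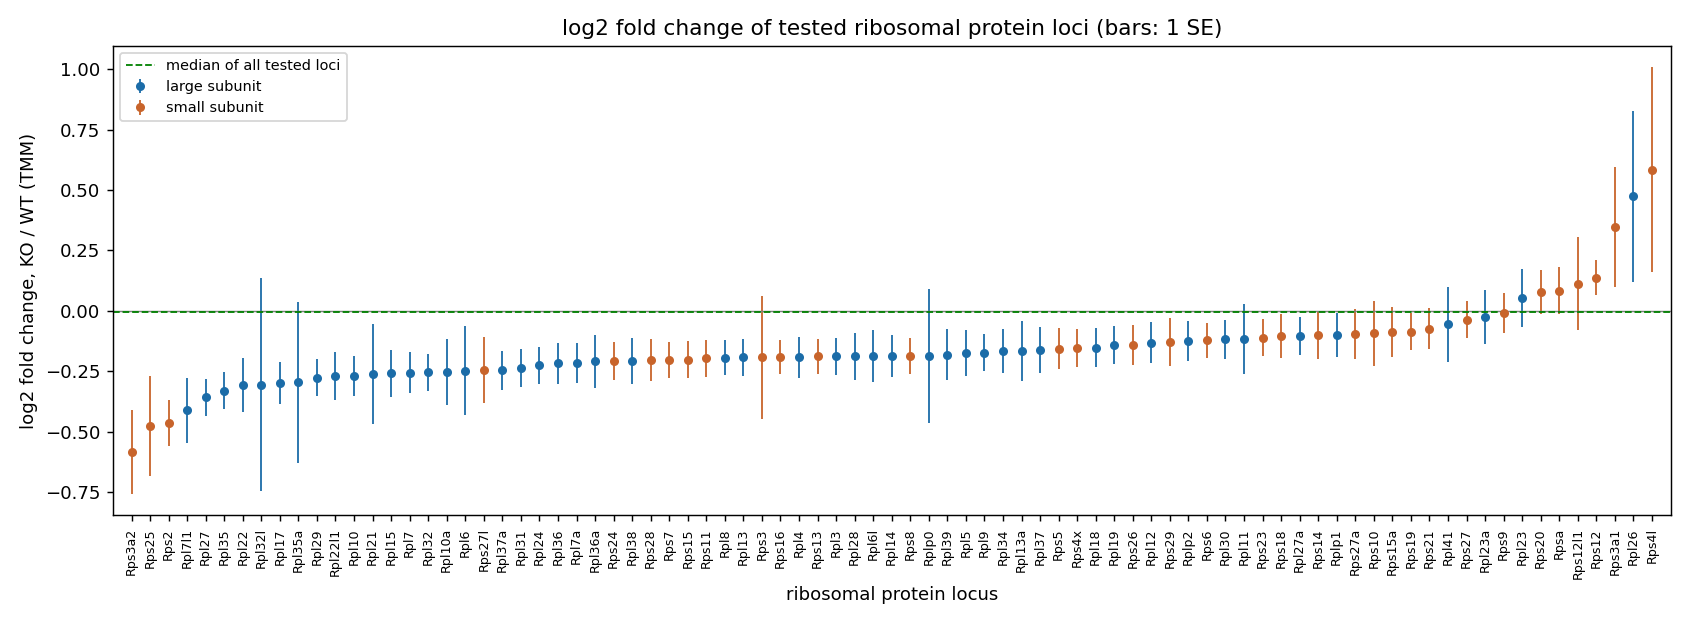
log2 fold change with TMM scaling (KO over WT, vertical axis) of 83 tested ribosomal protein loci in rising order along the horizontal axis, with bars of 1 SE, large subunit in blue and small subunit in orange. Rps3a3, at -2.08 with an SE of 1.33, and 2 loci not reported here are left out of the plot, 75 of the plotted loci are below 0 and 8 are above.

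Members with a positive log2 fold change in the TMM fit were few, 9 of 86, and 7 of them belonged to the small subunit. Rps12, a small subunit gene whose locus holds several small nucleolar RNAs, was at 112, 112 and 108 CPM in KO, against 97.1, 105 and 101 CPM in WT. It was the 1 member with every KO library above every WT library under TMM. Its KO libraries were also all above its WT libraries with total counts, as 1 of 8 members, and with equal Rn7sk counts, as 1 of 4. Its log2 fold change was 0.14 (SE 0.074, adjusted p = 0.322) with TMM, 0.36 with total counts and 0.33 with equal Rn7sk counts. Rpsa, which is also known as the laminin receptor, was at 291, 342 and 305 CPM in KO, against 288, 309 and 289 CPM in WT (log2 fold change 0.08, SE 0.099, adjusted p = 0.656).

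Other members with a known role outside or at the edge of the ribosome spread around the same small difference. Rplp0, Rplp1 and Rplp2 form the stalk that recruits translation factors, and the values of Rplp0 are given with its copies below. Rplp1 was at 197, 190 and 211 CPM in KO, against 220, 201 and 220 CPM in WT, with overlap. Rplp2 was at 59.6, 55.0 and 57.4 CPM in KO, against 61.4, 66.7 and 59.7 CPM in WT, where the highest KO library was just below the lowest WT library. Rpl5 and Rpl11, which bind MDM2 together with 5S rRNA when ribosome assembly is disturbed, had log2 fold changes of -0.18 (SE 0.095) and -0.12 (SE 0.15), and both overlapped between the groups. Rps6, the substrate of S6 kinase, was at 136, 140 and 138 CPM in KO, against 153, 150 and 146 CPM in WT (log2 fold change -0.12, SE 0.073, adjusted p = 0.372). Rps19, the gene most often mutated in human Diamond-Blackfan anemia, was at 94.8, 105 and 102 CPM in KO, against 103, 108 and 108 CPM in WT. Rps27a, made as a fusion with ubiquitin, was at 50.7, 53.7 and 43.6 CPM in KO, against 54.0, 49.7 and 54.4 CPM in WT, and both of these genes overlapped. Under total counts and equal Rn7sk counts, Rplp1, Rplp2, Rpl5, Rpl11, Rps6, Rps19 and Rps27a had positive log2 fold changes, of at most 0.14.

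Several ribosomal proteins have a second gene, and these minor paralogs were measured at very different levels. Rpl39l had 0 counts in each library, Rpl10l had 1 count in all, and the 10 counts of Rpl3l were all in KO replicate 1, which also leaves these 3 genes out of the test. Their main copies Rpl39, Rpl10 and Rpl3 held 4086 to 34243 counts per library. Rpl3 was at 154, 159 and 161 CPM in KO, against 175, 185 and 178 CPM in WT (log2 fold change -0.19, SE 0.076). Its pseudogene copies held 42.6% of the counts of Rpl3 and its copies together. Rpl39 was at 44.5, 53.6 and 52.2 CPM in KO, against 60.6, 57.3 and 52.5 CPM in WT, with overlap by KO replicate 2.

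The detected paralogs did not part from their main copies in 1 direction. Rpl7l1, a nucleolar relative of Rpl7, was at 20.8, 26.1 and 26.3 CPM in KO, against 33.8, 28.7 and 34.8 CPM in WT (log2 fold change -0.41, SE 0.13, adjusted p = 0.153). It was the 1 member with every KO library below every WT library with total counts. Its counts came to 9.19%, 11.6% and 11.3% of those of Rpl7 in KO and to 11.9%, 10.4% and 13.6% in WT, with overlap. Rpl7 was at 226, 226 and 232 CPM in KO, against 284, 277 and 255 CPM in WT. Rpl22l1 counts were 17.5%, 22.7% and 17.8% of those of Rpl22 in KO and 16.4%, 18.6% and 21.1% in WT. Both Rpl22l1, at 14.8, 15.3 and 15 CPM in KO and 16.7, 18.1 and 19.5 CPM in WT, and Rpl22, at 84.2, 67.2 and 84.6 CPM in KO and 102, 97.4 and 92.6 CPM in WT, were below WT in each KO library.

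Rps27l, a p53 target beside its ribosomal role, and Rps27 differed in how close their groups were. Rps27l was at 23.1, 23.5 and 21.6 CPM in KO, against 32.2, 24.0 and 24.6 CPM in WT, and its log2 fold change of -0.25 was -0.098 without WT replicate 1. Rps27 was at 139, 145 and 150 CPM in KO, against 152, 150 and 144 CPM in WT (log2 fold change -0.04, SE 0.077), and its sign turned with the scaling. Rps4l, an annotated pseudogene, was at 4.33, 5.47 and 2.53 CPM in KO, against 1.82, 2.13 and 4.27 CPM in WT, while Rps4x on the X chromosome was at 142, 141 and 147 CPM in KO, against 158, 168 and 154 CPM in WT. The log2 fold change of Rps4l was 0.58 with an SE of 0.42 and its groups overlapped, and that of Rps4x was -0.16 with an SE of 0.079. That of Rps4l was 0.32 without KO replicate 2 and 1.05 without WT replicate 3, the ends of its range when 1 library was left out.

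Per length of locus, the levels of the members spanned a wide range, with some of the annotated pseudogenes at its lower end. The highest mean CPM per kilobase over the 6 libraries was that of Rplp1, at 414, followed by Rpl38 at 204 and Rps15 at 186. Rpl38 was at 96.4, 104 and 107 CPM in KO, against 128, 117 and 109 CPM in WT. Rps15 was at 105, 112 and 110 CPM in KO, against 123, 131 and 124 CPM in WT, and neither gene overlapped between the groups. The lowest of the tested members per kilobase were the pseudogenes Rpl32l at 0.876, Rps12l1 at 3.59 and Rps4l at 3.63. Rpl32l was at 0.208, 0.354 and 0.378 CPM in KO, against 0.543, 0.402 and 0.212 CPM in WT, and Rps12l1 at 1.34, 1.5 and 1.63 CPM in KO, against 1.23, 1.49 and 1.41 CPM in WT. Lengths were used as deposited, and a merged gene lengthens its locus.

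Counts at the processed pseudogenes were set beside those of the members, since a read from a ribosomal protein mRNA may match its copies. Whether reads counted at a copy came from the mRNA of the member or from the copy itself was not tested. Loci of 1095 annotated pseudogenes had at least 90% identity over at least 100 bases to the coding sequence of a member, and 79 members had at least 1 such copy. The copies took 16.3%, 16.5% and 18.3% of the counts of members and copies together in KO and 16.9%, 19.2% and 17.2% in WT. Of these loci 447 passed the filter, 309 of them with a negative log2 fold change, and edgeR called 0, against 1.84% of all loci, with 21 at an unadjusted p under 0.05, against 22.2%. Their median log2 fold change was -0.12.

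At a few members the shares of counts at the gene and at its copies differed strongly between libraries. Rpl26 and its copy Gm15772 and Rps3a1 and its copy Rps3a3 are shown here as examples. Stretches of 90 bases from GENCODE M21 transcripts (GRCm38) are given 5′ to 3′, from coding positions 132 to 221 of Rpl26 (chr11:68901583-68906989, plus strand) and 193 to 282 of Rps3a1 (chr3:86137940-86142702, minus strand). Capitals mark the bases at which member and copy differ.
Rpl26: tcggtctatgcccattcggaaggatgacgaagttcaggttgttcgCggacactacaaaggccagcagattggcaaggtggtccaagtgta
Gm15772: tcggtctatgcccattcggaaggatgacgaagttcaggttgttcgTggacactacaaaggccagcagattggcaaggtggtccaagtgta
Rps3a1: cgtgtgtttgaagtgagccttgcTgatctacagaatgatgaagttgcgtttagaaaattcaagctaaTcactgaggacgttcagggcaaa
Rps3a3: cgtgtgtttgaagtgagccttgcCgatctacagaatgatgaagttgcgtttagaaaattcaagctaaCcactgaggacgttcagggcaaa

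Counting from 1 at the start codon, the whole 435 coding bases of Rpl26 differed from Gm15772 (chr5:3236431-3236868) only by C177T and T288C. The 792 coding bases of Rps3a1 differed from Rps3a3 (chr13:108670603-108671397), another member, by 8 substitutions over 791 aligned bases, among them T216C and T260C. Of all stretches of 100 bases, the length of 1 read, 40.5% were identical between Rpl26 and Gm15772 and 18.5% between Rps3a1 and Rps3a3. How reads that match several places were counted is not recorded in the labels, and a read may have been counted at more than 1 locus.

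Rpl26, at the peptide exit side of the large subunit, was at 99.8, 123 and 81.6 CPM in KO, against 116, 53.7 and 49.3 CPM in WT (log2 fold change 0.47, SE 0.35, adjusted p = 0.466). This log2 fold change was 0.97 without WT replicate 1 and 0.26 without WT replicate 3, the ends of its range when 1 library was left out. Gm15772 was at 71.3, 5.56 and 68.3 CPM in KO, against 84.4, 156 and 148 CPM in WT. The library with the most counts at Rpl26, KO replicate 2, had the fewest at the copy, and the 2 WT libraries with the fewest at Rpl26 had the most at the copy. With all copies added, the sum was 176, 132 and 156 CPM in KO, against 207, 216 and 203 CPM in WT. The sign of the difference turned, to a log2 fold change of -0.43 (SE 0.12, adjusted p = 0.114), and every KO library was below every WT library.

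Rps3a1, a small subunit protein at the mRNA exit, was at 269, 273 and 198 CPM in KO, against 238, 130 and 214 CPM in WT (log2 fold change 0.35, SE 0.25, adjusted p = 0.451). When 1 library was left out, it ranged from 0.14 without WT replicate 2 to 0.52 without WT replicate 1. Its copy Rps3a3 was at 1.15, 1.27 and 36.5 CPM in KO, against 42.9, 81.1 and 40.8 CPM in WT. Rps3a2, a copy on chromosome 14, was at 71.9, 73.9 and 101 CPM in KO, against 120, 143 and 106 CPM in WT. KO replicates 1 and 2 were far below the other 4 libraries at Rps3a3, and the same 2 libraries were the highest at Rps3a1. The log2 fold change of Rps3a3 was -2.08 (SE 1.33, adjusted p = 0.400), and without KO replicate 3 it was -5.51 with an adjusted p of 0.0321. Members and copies summed to 363, 369 and 376 CPM in KO, against 447, 417 and 400 CPM in WT (log2 fold change -0.19, SE 0.089, adjusted p = 0.262).

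At Rplp0 and Rps2 the counts of the gene and of its copies also differed between libraries. Rplp0 was at 365, 187 and 222 CPM in KO, against 327, 229 and 324 CPM in WT. Its log2 fold change of -0.19 was -0.52 without KO replicate 1 and -0.00099 without KO replicate 2. Its copies were at 57.8, 170 and 141 CPM in KO, against 86.4, 194 and 110 CPM in WT, with most of these at Gm8730 on chromosome 8, which is 98.7% identical. The sum of 422, 357 and 362 CPM in KO, against 413, 422 and 434 CPM in WT, was closer within each group than Rplp0 alone, and KO replicate 1 stayed apart from the other KO libraries. For Rps2 the copies were at 171, 99.6 and 167 CPM in KO, against 126, 133 and 131 CPM in WT. Rps2-ps13 on the X chromosome was at 56.5, 12.2 and 54.9 CPM in KO, against 14.7, 15.3 and 15.8 CPM in WT, so KO replicates 1 and 3 stood above the rest. With the copies added, the log2 fold change of Rps2 was -0.18 (SE 0.11, adjusted p = 0.369), less than the -0.46 of Rps2 alone.

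**Figure D4:**
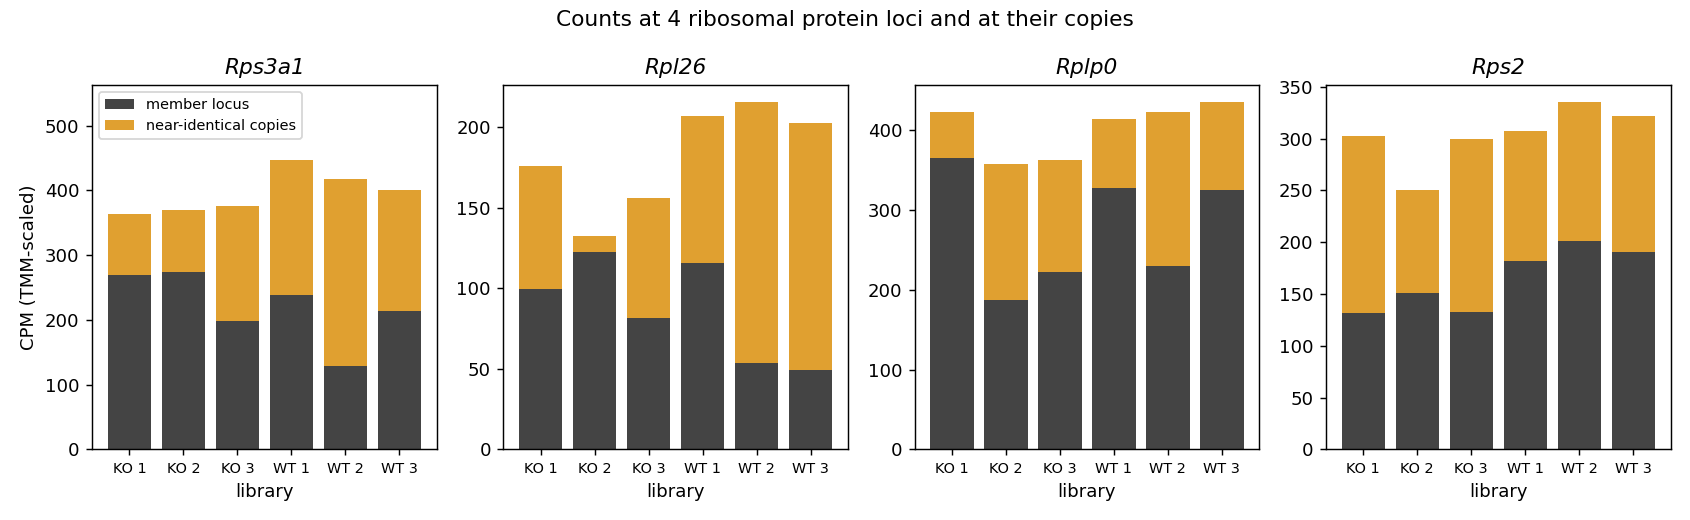
TMM-scaled CPM (vertical axis) in each of the 6 libraries at Rps3a1, Rpl26, Rplp0 and Rps2 (dark) and, stacked on them, at their near-identical copies (yellow). The dark part varies more than the whole bar for the first 3 genes, as for Rpl26 with 49.3 to 123 CPM at the gene.

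The effect of adding copies on the spread within groups was mixed over the members. Over the 81 members with both values, the median coefficient of variation within groups was 4.87% for the member and 4.82% for the sum, and it was lower for the sum at 39. For 5 members, chosen after their values were seen, the sum was much the tighter value. For Rpl26 it was 35.6% for the member and 8.61% for the sum, for Rpl35a 33.3% and 6.23%, for Rplp0 27.7% and 6.04%, for Rps3a1 23.3% and 3.64%, and for Rpl21 20.7% and 4.88%. Rpl35a and Rpl21 had summed values of 80.6, 78.8 and 85.5 CPM in KO, against 107, 91.1 and 96.1 CPM in WT for Rpl35a, and 142, 130 and 134 CPM in KO, against 165, 152 and 168 CPM in WT for Rpl21. Neither overlapped once summed, and both had overlapped before. With copies added for all members, 75 of 81 had a negative log2 fold change, against 50.5% of all loci, and the median was -0.18. Every KO library was below every WT library at 55 of them, against 14.2% of all loci before copies were added. Of the 81, edgeR called 0, where 1.85% of all loci were called. At an unadjusted p under 0.05 there were 25, all lower, against 9.94% of all loci.

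Some scattered members had few counted copies. Rps3, also singled out after its values were seen, was at 177, 168 and 121 CPM in KO, against 214, 200 and 119 CPM in WT, with replicate 3 of both groups low and only 0.233% of its summed counts at copies. Rps25 was at 86.0, 90.6 and 87.8 CPM in KO, against 166, 99.6 and 102 CPM in WT, with WT replicate 1 high. Rpl6, merged with Hectd4, was at 404, 294 and 297 CPM in KO, against 443, 318 and 422 CPM in WT. What sets these libraries apart at Rps3, Rps25 and Rpl6 was not tested.

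**Figure D5:**
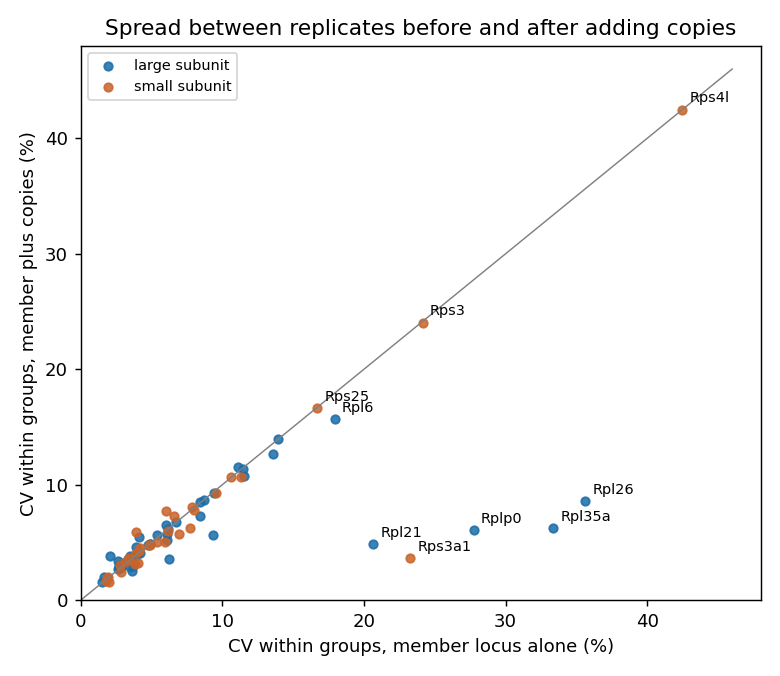
Coefficient of variation within groups (percent, mean of the KO and WT values) of each member alone on the horizontal axis and of the member plus its copies on the vertical axis, with large subunit in blue and small subunit in orange. Rpl26, Rpl35a, Rplp0, Rps3a1 and Rpl21 lie far below the diagonal line of equal values, while Rps4l, Rps3 and Rps25 lie on or near it.

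Many ribosomal protein genes host small nucleolar RNAs in their introns, and 27 of the tested loci carried such a name. Of these host loci 23 had a negative log2 fold change with a median of -0.19, and of the other 59 loci 54 were negative with a median of -0.19. The 7 loci merged with another coding gene were all negative, with a median of -0.22. The 47 members with a mean of at least 100 CPM had a median of -0.19 and the 35 with 10 to under 100 CPM a median of -0.17.

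Start regions from RefSeq (GRCm38.p6) were matched by symbol for 64 members, as windows of 250 bases before to 50 bases after the annotated start. In 4 of the 64, the hexamer CTCTTT, an example of a pyrimidine tract, began exactly at the start, against 0.104% of 27025 genes. These 4 are printed to show the tract, from 30 bases before the start to 20 bases after it, 5′ to 3′ on the gene's strand, with the hexamer in capitals. They lie at chr2:39005112-39005161 (minus strand), chr16:33056452-33056501 (plus), chr7:4792935-4792984 (plus) and chr4:86857348-86857397 (minus).
Rpl35: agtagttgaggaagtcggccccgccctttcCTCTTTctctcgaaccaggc
Rpl35a: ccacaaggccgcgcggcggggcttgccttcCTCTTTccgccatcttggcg
Rpl28: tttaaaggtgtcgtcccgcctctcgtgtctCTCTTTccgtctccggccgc
Rps6: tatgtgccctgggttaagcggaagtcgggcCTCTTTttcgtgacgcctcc

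Their log2 fold changes were -0.33 for Rpl35, -0.30 for Rpl35a, -0.19 for Rpl28 and -0.12 for Rps6, within the range of the other members. Anywhere in the window and on either strand, CTCTTT was found in 28 of the 64 members (43.8%), against 25.6% of genes. CCGGAAG, a core of binding sites of ETS factors, was in 26 (40.6%), against 9.93% of genes, and the TATA box core TATAAA was in 8 (12.5%), against 15.7% of genes. None of the 3 motifs contains another, and a match is a description of the letters only.

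Of 37 initiation factors 36 had a negative log2 fold change with TMM, with a median of -0.24, and edgeR called 0. At an unadjusted p under 0.05 there were 14, all lower in KO. Of all loci 9.73% were lower at that level and 22.2% differed in either direction. Eif4a1, the helicase that unwinds mRNA for the scanning ribosome, was at 248, 253 and 202 CPM in KO, against 367, 345 and 359 CPM in WT (log2 fold change -0.61, SE 0.11, adjusted p = 0.0571). Eif3c and Eif4g3 had log2 fold changes of -0.40 and -0.42 (adjusted p = 0.0696 and 0.103). Of 11 elongation and termination factors 9 were negative, with a median of -0.12 and 0 called, with 2 at an unadjusted p under 0.05, against the same 22.2%. Eef1a2, a form of the elongation factor found in muscle and nerve cells, ran the other way, at 85.7, 79.4 and 77.6 CPM in KO, against 42.9, 60.0 and 39.6 CPM in WT (log2 fold change 0.77, SE 0.17, adjusted p = 0.0724). Its groups did not overlap, and the chromaffin markers given above were also higher in KO, whose part in it was not tested. Etf1 and Abce1, which act in termination and ribosome recycling, had -0.39 and -0.30.

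Of 41 ribosome biogenesis factors 33 were negative, with a median of -0.19 and 0 called. At an unadjusted p under 0.05 there were 11, all but Mdn1 lower in KO, against 22.2% of all loci in either direction and 9.73% lower. Sbds, which helps to release a factor from the new large subunit, was at 39.1, 41.9 and 45.2 CPM in KO, against 55.8, 55.2 and 52.3 CPM in WT (log2 fold change -0.37, SE 0.088, adjusted p = 0.0858), while Bop1 and Pes1, partners in one maturation complex, had -0.42 and -0.30. Of 15 genes of TOR signalling and TOP mRNA control 10 were negative, with a median of -0.05 and 0 called. The 2 at an unadjusted p under 0.05 were lower in KO, against 9.73% of all loci lower. Eif4ebp1, the repressor of cap binding, was at 16.9, 17.0 and 18.1 CPM in KO, against 20.6, 25.2 and 24.9 CPM in WT (log2 fold change -0.44, SE 0.11, adjusted p = 0.0980). Larp4 and Akt1s1 had -0.34 and -0.21. Of 19 other TOP mRNAs 16 were negative, with a median of -0.14 and 0 called. The 4 at an unadjusted p under 0.05 were lower in KO, against 9.73% of all loci lower. Of these 19 genes 11 also stand in the lists of initiation, elongation or biogenesis factors, so the counts of these lists are not separate. Naca, a chaperone subunit at the tunnel exit, was at 198, 198 and 205 CPM in KO, against 261, 243 and 251 CPM in WT (log2 fold change -0.33, SE 0.080, adjusted p = 0.0881), and Eif3h and Eif3e had -0.25 and -0.32.

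Of 7 ribosomal proteins or close copies whose names fall outside the rule, 6 were negative with a median of -0.15, and 0 were called. The 1 at an unadjusted p under 0.05 was lower in KO, against 9.73% of all loci lower. Rpl36al, in a locus merged with Dnaaf2 and Pole2, had -0.27, and Fau, made as a fusion with a ubiquitin-like protein, had -0.13. With total counts the medians of these 6 lists were -0.0056 for initiation factors, 0.11 for elongation and termination factors, 0.04 for biogenesis factors, 0.19 for TOR and TOP control, 0.10 for the other TOP mRNAs and 0.07 for the other ribosomal proteins. All of these were below the 0.22 of all tested loci, as were the medians of both subunits, 0.03 for the large and 0.10 for the small.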

How the data were processed

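The authors deposited 1 table with whole-number read counts per locus for 6 libraries, raw per the file headers. The authors also deposited log2 CPM values, log2 values scaled to Rn7sk, and log2 values per group, none of which entered a test here, and 2 further columns were not used. Per the labels' protocols, directional libraries were made from 250 ng of RNA after rRNA depletion and read in pairs of 100 cycles. Trimmomatic, STAR, Picard, StringTie and edgeR with GRCm38 are named in the submitters' processing notes. Neither the counting program nor its use of strand or of reads with several matches is recorded in the labels.

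The 6596 loci without a gene name held 1.39% to 2.04% of a library's counts and were left out. Named loci were filtered with filterByExpr, scaled by TMM and tested with edgeR 4.0.16 (glmQLFit, robust, and glmQLFTest, two-sided, group only, R 4.3.3), with p-values adjusted over 21358 loci. The SE is the log2 fold change over the square root of F. The test was checked on simulated data. The total of named counts, equal Rn7sk counts and DESeq2 1.42.0 were among the alternatives. Copies were GENCODE M21 pseudogene transcripts whose best match by blastn 2.17.0 was a member's coding sequence, at loci with 1 gene name, and adding them to their member was an alternative chosen after seeing the data.

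Genes given by library were the 10 members with the smallest p, the minor paralogs and their main copies, the 3 highest and 3 lowest per kilobase, the 6 with the largest positive log2 fold change, a set of members with known extra roles, Rn7sk, Armc5 and, of each list, called loci and the 3 smallest p. Some genes that these rules name are not reported here. Other members were added for their copies or spread. The members, lists and rules were chosen with earlier results of these data known.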

Additional observations from a re-analysis of the deposited data

How the results depend on the processing

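The negative log2 fold changes of the ribosomal protein loci numbered 77 of 86, as reported, with RLE size factors, with TMM factors made without these loci, without mitochondrially encoded loci, with the replicate block and with DESeq2, and were 77 of 88 with no filter beyond 1 count, and the medians stayed within the spread between libraries under these settings. They depended on scaling to total counts or to Rn7sk. With total counts alone 672 loci were called, 24 members were negative, and the medians were 0.041 for all members, 0.033 for the large and 0.10 for the small subunit. With equal Rn7sk counts 711 loci were called, 33 members were negative, and these medians were 0.017, 0.0083 and 0.078. Requiring at least 10 CPM in 3 libraries gave medians of -0.11, -0.12 and -0.062 over 82 members. DESeq2 called 2626 loci and 8 members, and loci with 1 gene name had 49 negative of 54 members. Leaving out 1 library gave 15 to 644 called loci, against 393, with 15, 22 and 37 without KO replicates 1, 2 and 3, 383, 644 and 20 without WT replicates 1, 2 and 3, and 0 to 1 called members (1 without KO replicate 3, Rps3a3, and 1 without WT replicate 2). The share of counts without mitochondrially encoded loci was 1.18%, 1.19% and 1.17% in KO and 1.15%, 1.22% and 1.15% in WT. The cause of these shifts was not tested.

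No pairing of the samples by replicate number was seen. Deviations of same-numbered libraries correlated at -0.031, 0.016 and -0.11, and 1 of 6 libraries correlated best with its own number. Deviations from a group mean of 3 libraries depend on each other, so this check cannot exclude pairing. The replicate block called 5 loci and 0 members. It had 13 members at an unadjusted p under 0.05, all lower in KO, where 1615 of 21358 loci were lower. Without the block there were 29 members, where 9.73% of all loci were lower.

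Signs of single genes turned as follows. With total counts the log2 fold change was 0.037 for Rpl3, 0.048 for Rpl39, 0.070 for Rps4x, 0.19 for Rps27, 0.023 for Rps15, 0.023 for Rpl38, 0.13 for Rplp1, 0.052 for Rplp0, 0.098 for Rplp2, 0.060 for Rpl5, 0.12 for Rpl11, 0.11 for Rps6, 0.14 for Rps19 and 0.14 for Rps27a. With equal Rn7sk counts it was 0.011 for Rpl3, 0.020 for Rpl39, 0.046 for Rps4x, 0.17 for Rps27, 0.11 for Rplp1, 0.033 for Rplp0, 0.076 for Rplp2, 0.028 for Rpl5, 0.084 for Rpl11, 0.079 for Rps6, 0.11 for Rps19 and 0.099 for Rps27a. With copies added it was -0.43 for Rpl26 and -0.19 for Rps3a1, and with at least 10 CPM 0.037 for Rps27. Leaving out 1 library gave -0.59 to 0.013 for Rpl32l and -0.18 to 0.00029 for Rpl11. Median SEs of 0.09 on the log2 scale limit what single genes can show.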
